A study of Mus musculus with 150 samples.

Results

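The nuclear genes of the mitochondrial respiratory chain were followed in whole mouse lung over the weeks of an inhalation study, between strains and between styrene and air. They are the genes whose array symbol begins with Ndufa, Ndufb, Ndufc, Ndufs, Ndufv, Uqcr, Cox4, Cox5, Cox6, Cox7 or Atp5, each read by the probe set of 1 gene with the highest mean over all arrays. The rule found 80 of 17097 genes, and all 80 were among the 15695 genes tested. They comprise 6 core subunits, 26 accessory subunits and 7 assembly factors of complex I, and 7 subunits of complex III. Complex IV has 10 commonly expressed and 6 tissue-restricted forms, and ATP synthase 5 subunits of the F1 head and 12 of the membrane part and stalk. The remaining member is named as the pseudogene Ndufs5-ps in the annotation. Its probe sets averaged 9.91 and 9.84, and whether they read Ndufs5 itself was not tested. Cox7b2, a testis form, averaged 2.83, below the level of 2.99 to 3.19 that the filter on dim genes set on single arrays, so its values say little.

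The respiratory chain lies in the inner mitochondrial membrane. Complex I (NADH dehydrogenase) and complex III (the cytochrome bc1 complex) pass electrons on to complex IV (cytochrome c oxidase), which reduces oxygen, and ATP synthase uses the proton gradient that these complexes build. A few core subunits of each complex carry the redox or catalytic centres, while many small accessory subunits surround them, and most subunits are encoded in the nucleus. In the lung, type 2 cells, ciliated cells and club cells are rich in mitochondria, and the muscle of the heart and of the walls of large pulmonary veins is richer still.

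RNA came from 150 adult male mice, 1 array each, in 31 groups of 2 to 10 mice that inhaled air (71 mice) or 120 ppm styrene (79 mice) and were labelled 26, 52, 78 or 104 weeks. Wild-type C57BL/6 mice (WT, n = 31), C57BL/6 mice whose CYP2F2 was knocked out on both alleles (KO, n = 39), C57BL/6 mice with that knockout plus the human transgenes named 2F1, SA13 and 2B6 in the labels (TG, n = 38) and outbred CD-1 mice (n = 42) were used, all from a single supplier. The labels do not say which promoter drives the transgenes. Inhalation took place for 6 hours on 5 days a week, and a treatment note of 1 or 4 weeks conflicts with the week in each sample's own label, which was used here. WT air controls of 26 weeks were not analysed here.

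The labels give wells and name no plate, so plates were inferred from well positions that recur. This put 88 arrays on plate 1, 14 on plate 2, 22 on plate 3 and 22 on plate 4 and left 4 open, and every statement on plates rests on it. On plate 1 the weeks lay in order down the rows, with 26 weeks in rows A to D, 52 weeks in D to G and 78 weeks in G to H, so week and well position cannot be told apart. At 104 weeks air arrays were on plate 3 and styrene arrays on plate 4, so dose and plate cannot be told apart. Of the exposed arrays of 78 weeks, those of KO and TG mice and 4 of 5 of WT mice were on plate 2. The model had a term for that plate, set only by groups split over plates 1 and 2. Those groups were exposed CD-1 mice of 26 weeks (4 and 1 arrays) and CD-1 air controls of 52 weeks (3 and 1). Exposed WT mice of 78 weeks (1 and 4) were the last. In KO and TG mice of 78 weeks all air arrays were on plate 1, so their dose differences rest on that term. The lung identity of the samples was clear in each array, with the type 2 cell gene Sftpc at 13.65 to 13.93, the club cell gene Scgb1a1 at 13.59 or higher and the type 1 cell gene Ager at 12.61 to 13.67. The targeted gene Cyp2f2 ran from 11.69 to 12.55 in KO and TG and from 12.07 to 13.54 in WT and CD-1 mice, and how its probe set sits relative to the deletion is unknown here. Levels are log2 intensities and differences are on the log2 scale unless a fold is named.

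Some promoters of the members hold letters of known sites of factors that drive nuclear genes of mitochondria. In RefSeq's table for GRCm38.p6, 65 members matched by symbol, and windows from 250 bases before to 50 after the start were searched on both strands. The core of the NRF1 site, searched as GCGCATGCG, was in the windows of 10 members (15.4%) against 1.95% of 27025 genes. The YY1 site, searched as AAGATGGCG, was in 8 members (12.3%) against 1.64%, the GABPA site CCGGAAGTG in 1 (1.5%) against 2.25% and the site TCAAGGTCA of the estrogen-related receptors in 1 (1.5%) against 0.47%. None of these letter strings overlaps another in the sequences printed. Together 20 members (30.8%) held at least 1 of them, against 6.01% of all genes, and a match is a description of the sequence, not of binding. The NRF1 letters were found in the complex I genes Ndufa8, Ndufa11, Ndufaf4 and Ndufaf5, the complex III genes Uqcr11 and Uqcrc1, Cox6a1, and the ATP synthase genes Atp5g2, Atp5k and Atp5l. Below are the 250 bases before the start of 3 members that fell with the weeks and of Ndufaf4, for which no change was called up to 78 weeks. Capitals mark the NRF1 letters, which overlap on both strands in each of them. Ndufa11 (complex I accessory, chr17:56717512-56717761, plus strand, GRCm38.p6), Atp5k (ATP synthase subunit e, chr5:108434400-108434649, minus strand), Atp5g2 (a c-ring subunit gene, chr15:102671048-102671297, minus strand) and Ndufaf4 (complex I assembly, chr4:24897833-24898082, plus strand) held the letters at 60, 50 and 42 bases before the start in the first 3, and farther upstream in Ndufaf4.
Ndufa11: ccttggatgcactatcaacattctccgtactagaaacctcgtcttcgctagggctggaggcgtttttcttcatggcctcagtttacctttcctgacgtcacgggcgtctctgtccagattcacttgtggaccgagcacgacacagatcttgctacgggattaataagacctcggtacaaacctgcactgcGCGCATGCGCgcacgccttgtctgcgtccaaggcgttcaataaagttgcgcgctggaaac
Atp5k: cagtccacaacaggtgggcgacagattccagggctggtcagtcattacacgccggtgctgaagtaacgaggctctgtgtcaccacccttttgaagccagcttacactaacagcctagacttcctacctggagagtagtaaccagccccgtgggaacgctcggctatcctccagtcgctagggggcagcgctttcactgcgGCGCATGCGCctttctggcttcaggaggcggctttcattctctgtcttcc
Atp5g2: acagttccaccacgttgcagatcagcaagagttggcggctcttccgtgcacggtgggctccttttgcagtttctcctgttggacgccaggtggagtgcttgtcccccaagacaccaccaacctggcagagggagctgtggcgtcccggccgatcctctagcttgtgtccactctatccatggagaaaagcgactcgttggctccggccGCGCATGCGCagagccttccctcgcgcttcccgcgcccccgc
Ndufaf4: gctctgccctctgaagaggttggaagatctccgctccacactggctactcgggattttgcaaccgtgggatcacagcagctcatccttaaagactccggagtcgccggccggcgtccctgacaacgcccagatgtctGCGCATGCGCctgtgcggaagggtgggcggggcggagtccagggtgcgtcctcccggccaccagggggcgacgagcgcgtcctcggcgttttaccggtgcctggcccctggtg

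The question of time was whether members changed between weeks in the same exposure arm. Levels were averaged over the 80 members, with each gene set to its own mean over all arrays. Up to 78 weeks they were highest at 26 weeks and lower afterwards. The median array lay at 0.11 in air controls of 26 weeks, at 0.04 at 52 weeks and at -0.14 at 78 weeks. In styrene-exposed mice the medians were 0.12, -0.03 and -0.04 in that order. The ranges at 26 and 78 weeks met only at their ends in air, at -0.01 to 0.19 against -0.26 to 0.01. RNA of whole lung cannot tell fewer cells of a type from less RNA per cell.

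**Figure D1:**
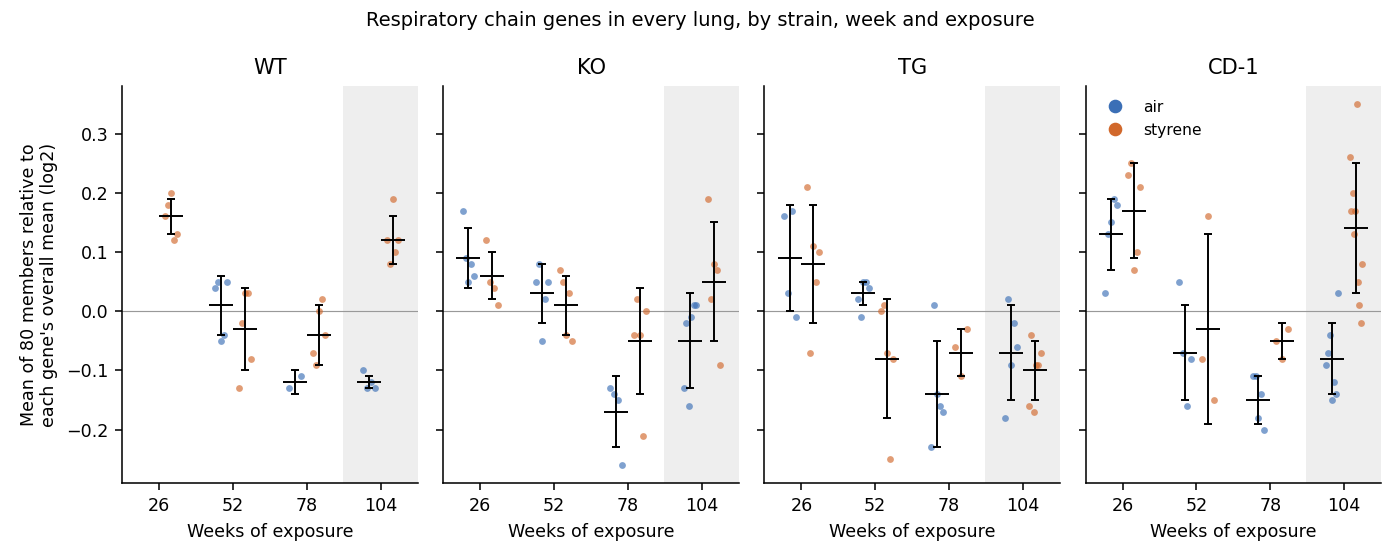
Mean of the 80 members in every lung, relative to each gene's mean over all arrays (log2), by weeks of exposure, with 1 panel per strain, air in blue and styrene in orange. Black bars are group means ± SD, and at 104 weeks (grey) dose and array plate coincide. Air controls stepped down from 26 to 78 weeks in KO, TG and CD-1 mice, and exposed WT mice of 26 weeks lay at 0.12 to 0.20 against -0.13 to 0.03 at 52 weeks.

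From 26 to 52 weeks in air, averaged over KO, TG and CD-1 mice, 16 members fell and none rose, where 1.26% of all genes fell (limma, adjusted p under 0.05 over all genes tested). The median difference was -0.11 over the members and 0.00 over all genes. They were 9 of 26 accessory subunits, 1 of 6 core subunits and 2 of 7 assembly factors of complex I, 1 of 7 complex III subunits and 3 of 12 membrane and stalk subunits of ATP synthase, with none of the 10 common complex IV subunits, and the roles were not compared by a test. Ndufb2 fell 1.24-fold (-0.31, SE 0.0537, adjusted p = 0.000237 in limma), and its call held with each of 28 arrays left out. Ndufb4, Ndufb11 and Ndufa11, further accessory subunits, fell by 0.26, 0.16 and 0.25, the complex III subunit Uqcr11 fell by 0.19 and the ATP synthase subunit Atp5md by 0.17. The calls of both assembly factors, Ndufaf3 and Ndufaf8, were lost in 18 and 9 of 28 fits with an array left out. That of the core subunit Ndufs8 was lost in 4. The accessory subunits Ndufa6, Ndufa7, Ndufv3 and Ndufa9 lost theirs in 16, 13, 9 and 2, and Atp5j2 in 1. The other calls held in each fit. Without TG air 26 weeks replicate 1 the count of members called was 8. Without CD-1 air 52 weeks replicate 3, the only array of its group on plate 2, the count was 9.

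The same step in styrene-exposed mice of all 4 strains, other animals throughout, gave 51 members that fell and 2 that rose, where 17.1% of all genes fell and 10.5% rose. The median was -0.16 against -0.03 over all genes. Atp5c1, the rotating gamma subunit of ATP synthase, had the smallest adjusted p (fell 1.16-fold, -0.21, SE 0.0279, adjusted p = 1.69e-08, limma). A dimmer probe set of the gene, with a mean of 4.45, went the other way, at 0.37. Of 39 members with several probe sets, 10 had mixed signs in this step. In exposed WT mice the brighter Atp5c1 probe set read 11.64, 11.63, 11.65, 11.57 and 11.52 at 26 weeks against 11.42, 11.42, 11.40, 11.49 and 11.37 at 52 weeks. In exposed KO mice it read 11.53, 11.53, 11.58 and 11.45 against 11.39, 11.29, 11.29, 11.38 and 11.26. In neither strain did the weeks overlap. In exposed TG mice the readings were 11.51, 11.42, 11.54, 11.40 and 11.57 against 11.31, 11.33, 11.36, 11.15 and 11.44, and in CD-1 mice 11.68, 11.65, 11.52, 11.61 and 11.56 against 11.27, 11.45 and 11.25. The TG weeks overlapped through the last of these 52-week arrays, and the CD-1 weeks did not overlap. The members that rose were Cox6a1, a liver-type complex IV subunit found in most tissues (0.10, adjusted p = 0.0121), and Atp5a1, the alpha subunit of the F1 head (0.08, adjusted p = 0.0447).

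Across the 7 pairs of strain and arm with both weeks, 56 to 76 of the 80 members had a lower mean at 52 than at 26 weeks. Of these, 43 were lower in all 7 pairs, or 53.8% of the members, against 11% of all genes. They included 17 of 26 complex I accessory subunits and no tissue form of complex IV. Groups that did not overlap were most frequent in exposed WT mice, with 38 members wholly lower at 52 weeks against 8.52% of all genes, and in CD-1 air controls with 27 against 4.08%. The change from 26 to 52 weeks was then compared between the arms within KO, TG and CD-1 mice. No member differed (limma, 0.0127% of all genes called; at an unadjusted p under 0.05 there were 3 members, or 3.75%, and 5.1% of all genes), with differences from -0.18 (Ndufs4) to 0.25 (Ndufa4l2) and a median SE of 0.07.

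**Figure D2:**
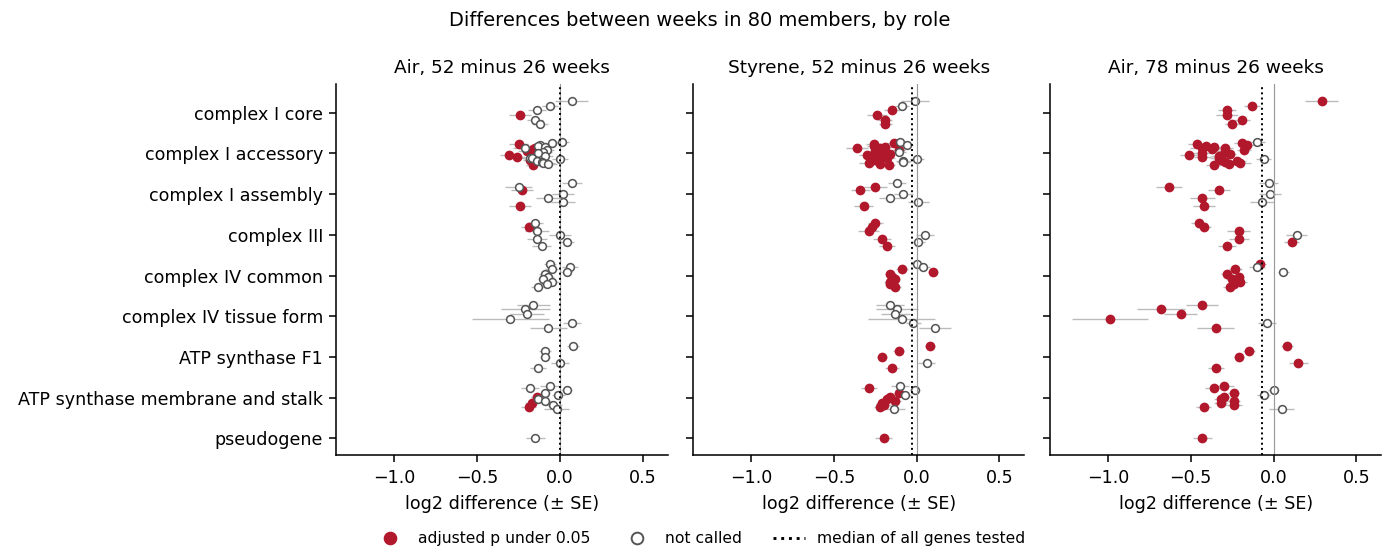
log2 differences of the 80 members (± SE) between weeks, grouped by role, for air controls from 26 to 52 weeks, exposed mice over the same step and air controls from 26 to 78 weeks. Red points passed an adjusted p of 0.05 in limma, open points did not, and the dotted line is the median of all genes tested. Accessory subunits of complex I sat left of that line in most cases, while complex IV tissue forms spread widest, down to -0.99 for Cox7a1.

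Between 52 and 78 weeks air controls of all 4 strains moved further, with 53 members lower and 1 higher, where 24.1% of all genes fell and 17% rose. The median was -0.14 against -0.06. Ndufa2, a complex I accessory subunit, fell by 0.28 (SE 0.0410, adjusted p = 3.42e-08, limma) and Uqcr10, a small complex III subunit, by 0.29 (adjusted p = 3.2e-07). The complex IV subunits Cox6b1 and Cox7c each fell by 0.19. In exposed mice no member passed over the same step (limma, 5.85% of all genes called; at an unadjusted p under 0.05 there were 2 members, or 2.5%, and 20.5% of all genes), and the median was -0.03 against 0.02 over all genes. Most of those 78-week arrays lay on plate 2, and without the plate term 17 members were called, 7 higher and 10 lower. Whether the arms differed over this step was not tested.

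Over the whole span from 26 to 78 weeks, in air controls of KO, TG and CD-1 mice, 64 members fell and 4 rose, where 31.9% of all genes fell and 20.8% rose. The median was -0.28 against -0.07 over all genes, and 68 members had a lower mean in all 3 strains (85.0%, against 45.2% of all genes). Uqcr11 fell 1.34-fold (-0.42, SE 0.0440, adjusted p = 2.74e-14, limma) and Ndufb2 1.43-fold (-0.51, SE 0.0531, adjusted p = 3.08e-14). Ndufb2 read 10.90, 10.72, 10.74, 10.75 and 10.75 in KO mice at 26 weeks and 10.55, 10.36, 10.26 and 10.02 at 78 weeks. In TG mice it read 10.94, 10.70, 10.70 and 10.67 against 10.26, 10.39, 10.30, 10.25 and 10.20. In CD-1 mice it read 10.66, 10.72, 10.69, 10.73 and 10.74 against 10.30, 10.15, 9.94, 10.24 and 9.98. In each strain every 78-week array lay below every 26-week array, and groups without overlap of this kind were found for 37 members in KO (11.5% of all genes), 27 in TG (12.1%) and 42 in CD-1 mice (10.2%).

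By role, 24 of 26 complex I accessory subunits fell over this span (median -0.31), as did 4 of 7 complex I assembly factors, 5 of 7 complex III subunits, 8 of 10 common complex IV subunits and 9 of 12 membrane and stalk subunits of ATP synthase. Among assembly factors Ndufaf2 fell 1.55-fold (-0.63, adjusted p = 6.13e-11), whereas Ndufaf4 stood at -0.02 (a dimmer probe set of the gene at 0.66) and Ndufaf1 at -0.03. Of the 6 complex I core subunits 5 fell, led by Ndufs7 and Ndufs8 (each -0.28) and Ndufv2 (-0.25). The F1 head was split. The epsilon subunit Atp5e fell by 0.35, gamma (Atp5c1) by 0.21 and the catalytic beta subunit Atp5b by 0.15. A dimmer probe set of Atp5c1 stood at 0.86. Delta (Atp5d) rose by 0.15 and alpha (Atp5a1) by 0.08. The Rieske protein gene Uqcrfs1 rose by 0.11. The calls of Atp5a1, Uqcrfs1 and the complex IV subunit Cox4i1 (-0.08) were lost in 13, 11 and 12 of 28 fits with an array left out, those of Atp5d, Ndufs4 and Uqcrb in 1. Of 39 members with several probe sets, 33 had probe sets of a single sign, and 50 of 57 other probe sets of members were lower at 78 weeks.

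Ndufs1, the largest core subunit of complex I, ran the other way and was the highest of all members over this span (0.29, SE 0.0972, adjusted p = 0.00928, limma). In KO mice it read 8.00, 8.21, 8.37, 8.38 and 8.27 at 26 weeks against 7.75, 8.57, 8.61 and 8.71 at 78 weeks. In TG mice the readings were 8.04, 8.22, 8.34 and 8.12 against 8.65, 8.28, 8.43, 8.5 and 8.66, and in CD-1 mice 8.35, 8.29, 8.25, 8.08 and 8.04 against 8.49, 8.40, 8.82, 8.48 and 8.72. Only in CD-1 mice were the weeks apart, and 1 KO array of 78 weeks lay below all of 26 weeks. Over the 150 arrays, each taken as its deviation from its group mean, Ndufs1 had r = -0.37 with the mean of the other members, the lowest of all. The genes most like it were Dhx15 (r = 0.90), an RNA helicase, and Polr2b (0.89), an RNA polymerase subunit. The arrays share plates and handling within a group, so such correlations, here and below, are descriptions.

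A within-group axis moved with the weeks in air, and its part in the week differences was not tested. It is the leading principal component of how the 102 arrays up to 78 weeks deviated from their group means, computed without the members. It holds 23.7% of that variance and is scaled to the within-group SD. Air controls had median scores of -0.01, 0.21 and 1.90 at 26, 52 and 78 weeks, and exposed mice of -0.34, 0.48 and 0.56. With the score as a covariate, 61 members were called from 26 to 78 weeks in air, 25 from 26 to 52 weeks in air and 56 in styrene, while Ndufb2 stood at -0.38 (adjusted p = 4.22e-11) and Uqcr11 at -0.29 (adjusted p = 2.61e-12). Ndufs1 then stood at -0.05 (adjusted p = 0.584) and Atp5b at -0.08 (adjusted p = 0.0632), both no longer called.

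Neighbouring mitochondrial gene groups were read over the same span in air, beside 31.9% of all genes lower, 20.8% higher and a median of -0.07. Of 73 genes of the mitochondrial ribosome 55 fell and 3 rose (median -0.28), led by Mrps21 (-0.54) and Mrpl52 (-0.53). Of 72 cytosolic ribosomal protein genes 33 fell and 2 rose (median -0.08). Of 15 cytochrome oxidase assembly genes 9 fell, with the copper chaperones Cox17 and Cox19 at -0.34 and -0.75, and 2 rose, Sco1 (0.32) and Lrpprc (0.49). Of 10 other electron carriers and complex II or IV genes 5 fell, among them cytochrome c (Cycs, -0.42), and 2 rose, Sdha (0.30) and Etfa (0.31). Of 13 citric acid cycle genes 3 were lower and 2 higher, shares no larger than those of all genes, and of 14 fatty acid oxidation genes 7 were lower and 2 higher. Among 17 regulators of mitochondrial biogenesis 9 rose and 3 fell, and Nrf1 stood at 0.08 (adjusted p = 0.34). Gabpa (0.84) and Gabpb1 (0.49), which form the factor NRF2/GABP, and the mitochondrial transcription factor Tfam (0.28) and Yy1 (0.23) rose, while the coactivator Pprc1 fell (-0.46).

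From 78 to 104 weeks in air 28 members rose and 7 fell, where 12.8% of all genes rose and 16.9% fell. Cox7c had the smallest adjusted p (0.25, SE 0.0350, adjusted p = 1.12e-08, limma), and the median was 0.08 against 0.00. All 104-week air arrays lay on plate 3, so week and plate cannot be told apart. With plate as a random block 1 member was called.

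Cox6a2 and Cox7a1, the striated muscle forms of their complex IV subunits, had the widest ranges of all members over the arrays. Cox6a2 ranged from 6.68 to 9.71 and Cox7a1 from 3.87 to 8.77 over the 150 arrays. In deviations from group means the genes most like Cox7a1 were Cox8b (r = 0.90), Fabp3 (0.88), Ckmt2 (0.87), Tnnc1 (0.86) and Mb (0.84), and those most like Cox6a2 were Ckm (0.82), Cox8b (0.81), Fabp3 (0.80), Ckmt2 (0.79) and Actn2 (0.79), most of them genes of muscle energy metabolism or of its contractile unit. With the mean of 13 heart muscle markers Cox7a1 had r = 0.83 and Cox6a2 r = 0.72, against r = -0.09 for Ndufb2 and 0.07 for Uqcr11.

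**Figure D3:**
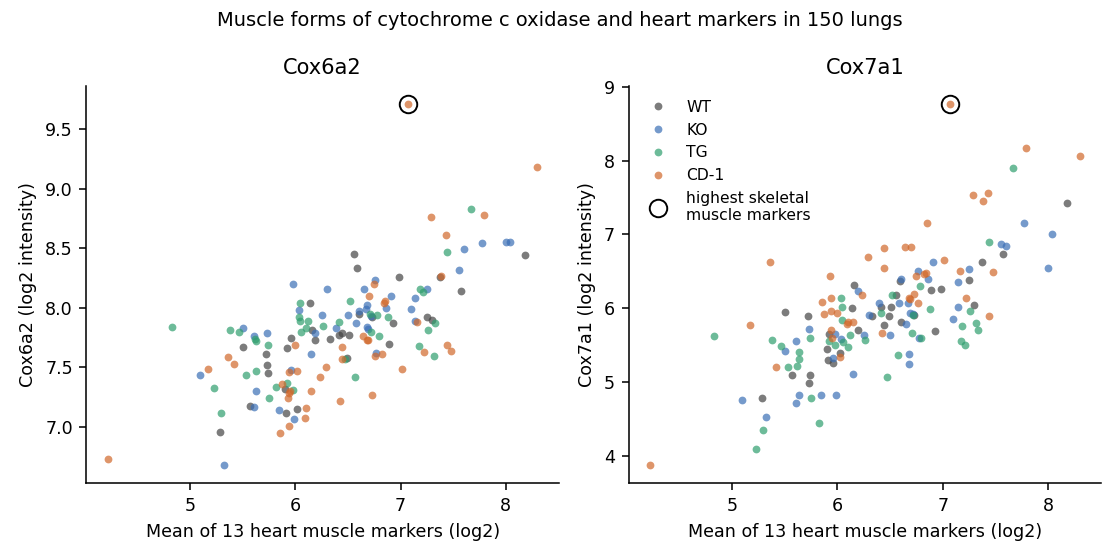
Level of Cox6a2 (left) and Cox7a1 (right) in each of 150 lungs against the mean of 13 heart muscle markers (log2), coloured by strain. Both rise with the markers, and the circled lung, CD-1 styrene 104 weeks replicate 6, had the highest skeletal muscle markers, with a mean of 9.27, and both muscle forms at their maximum.

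Both muscle forms fell from 26 to 78 weeks in air, Cox7a1 1.98-fold (-0.99, SE 0.230, adjusted p = 0.000173, limma) and Cox6a2 1.60-fold (-0.68, SE 0.146, adjusted p = 4.67e-05). Cox7a1 read 6.39, 6.53, 5.42, 5.55 and 5.72 in KO mice of 26 weeks and 4.72, 4.82, 4.82 and 4.82 at 78 weeks. In TG mice it read 6.02, 5.57, 7.90 and 5.22 against 4.35, 5.40, 5.96, 5.55 and 5.80, and in CD-1 mice 6.43, 6.83, 7.45, 7.54 and 7.15 against 5.78, 5.92, 6.49, 6.14 and 5.71. The KO weeks did not overlap, the CD-1 weeks overlapped slightly and the TG weeks overlapped over most of their range. None of the 13 heart markers passed over this span (median -0.07). Their mean per array ran from 5.50 to 7.25 in KO, 5.38 to 7.67 in TG and 5.93 to 7.38 in CD-1 mice at 26 weeks, and from 5.61 to 5.99, 5.29 to 7.32 and 5.87 to 7.48 at 78 weeks. With that mean as a covariate Cox7a1 was at -0.91 (adjusted p = 4.02e-09) and Cox6a2 at -0.64 (adjusted p = 1.03e-07). Of 4 white fat markers 3 were lower (Adipoq at -1.67), and of 5 brown fat markers 2, Ucp1 (-0.64) and Cox8b (-1.20), which muscle also expresses, where 31.9% of all genes fell. Their part in the result was not tested.

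Of the 4 other tissue forms 3 fell over the same span, and the dim Cox7b2 stood at -0.04. Cox4i2, the form of subunit 4 that is prominent in lung, fell 1.34-fold (-0.43, adjusted p = 0.000121, limma). Its level was low, with a mean of 4.47 beside array medians of 3.95 to 4.26. The testis form Cox6b2 fell 1.47-fold (-0.56, adjusted p = 1.37e-06) and Ndufa4l2, a hypoxia-inducible relative of Ndufa4, fell 1.27-fold (-0.35, adjusted p = 0.0053). In deviations from group means Ndufa4l2 was most like Cdc42ep1 and Notch3 (r = 0.71 each), the latter a receptor of vascular mural cells. In the step from 26 to 52 weeks none of the 6 tissue forms was called in either arm.

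Up to 78 weeks styrene was compared with air within each of 11 pairs of strain and week. No member was called at 26 weeks in KO and TG (each 0% of all genes called) or CD-1 mice (0.65%), at 52 weeks in KO and TG (each 0.0127%) or CD-1 mice (0.0701%), or at 78 weeks in WT (0.00637%), KO (0%) or CD-1 mice (0.121%). At an unadjusted p under 0.05 in limma there were 0, 1 and 5 members in KO, TG and CD-1 mice at 26 weeks, 2, 18 and 3 at 52 weeks, and 2, 3 and 13 in WT, KO and CD-1 mice at 78 weeks. The largest of these shares, 22.5% in TG mice at 52 weeks and 16.2% in CD-1 mice at 78 weeks, stood against 12.3% and 9.71% of all genes at that threshold. Averaged over the 11 pairs no member was called either (limma, 0.102% of all genes called; at an unadjusted p under 0.05 there were 9 members, or 11.2%, and 7.57% of all genes). The median difference was 0.01 over the members and 0.01 over all genes, and members ran from -0.08 (Atp5pb) to 0.21 (Cox7a1) with a median SE of 0.034. Their 95% intervals lay between -0.18 and 0.52, the upper end being that of Cox7a1.

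Single members were called in the other 2 pairs. At an unadjusted p under 0.05 in limma 18 members passed in WT mice at 52 weeks (22.5%, against 10.6% of all genes). In TG mice at 78 weeks 22 members did (27.5%, against 20.9% of all genes). In WT mice at 52 weeks the small complex IV subunit Cox7c fell 1.19-fold in styrene (-0.25, SE 0.0641, adjusted p = 0.0434, limma), where 0.236% of all genes fell. It read 9.68, 9.67, 9.75, 9.73 and 9.54 in air and 9.38, 9.44, 9.53, 9.37 and 9.41 in styrene, with the lowest air array just above the highest exposed one. The call was lost in 9 of the 10 fits that left an array out, at adjusted p up to 0.146. In TG mice at 78 weeks Atp5j, the coupling factor 6 of ATP synthase, fell 1.44-fold (-0.53, SE 0.102, adjusted p = 0.0116), where 0.0765% of all genes fell. It read 10.86, 10.87, 10.91, 10.83 and 10.83 in air on plate 1 and 10.53, 9.82 and 10.40 in styrene on plate 2. Without TG styrene 78 weeks replicate 2, the lowest of these, the difference was -0.31 (adjusted p = 0.993). The number of members called at that point ran from 0 without replicate 2 to 20 without replicate 1, 7 without replicate 3 and 2 without TG air 78 weeks replicate 2, and was 39 without the plate term.

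At 104 weeks most members were higher in styrene in WT and CD-1 mice, fewer than that in KO mice, and none was called in TG mice. In WT mice 50 rose and 2 fell, where 29.6% of all genes rose and 18.3% fell, with a median of 0.28 against 0.12. In CD-1 mice 56 rose and 2 fell (42.8% and 20.7% of all genes, medians 0.24 against 0.16), and the label names a tumour for 5 of 10 exposed and 2 of 7 air lungs. Without the 10 tumour-labelled lungs of the series, all of 104 weeks, 50 rose and 1 fell in CD-1 mice. In KO mice 28 rose and 3 fell (23.9% and 15.4%, medians 0.12 against 0.11), a median close to that of all genes. Without KO styrene 104 weeks replicate 1 the KO count was 14 and without replicate 3 it was 18. In TG mice no member was called, and 0% of all genes were (limma, median -0.02 against -0.01), and at an unadjusted p under 0.05 there were 5 members, or 6.25%, and 6.24% of all genes. Every air array was on plate 3 and the styrene arrays on plate 4 or open, so styrene and plate cannot be told apart.

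Ndufb8, an accessory subunit often used as a marker of assembled complex I, illustrates the order of the groups. In WT mice it read 9.97, 9.97, 10.02 and 10.04 in air and 10.46, 10.47, 10.58, 10.44 and 10.54 in styrene (0.50, SE 0.0828, adjusted p = 9.74e-07, limma). In KO mice air arrays ran from 10.00 through a median of 10.07 to 10.28 (n = 6) and styrene arrays read 10.51, 10.34, 10.47, 10.34 and 10.17 (0.25, adjusted p = 0.00487). Only the WT groups were wholly apart. In CD-1 mice the range was 9.91 to 10.24 (median 10.09, n = 7) in air and 10.21 to 10.64 (median 10.43, n = 10) in styrene, and in TG mice air arrays read 10.11, 10.27, 10.19, 10.39 and 10.11 against 9.96 to 10.24 (median 10.07, n = 6) in styrene. Over all members, styrene lay wholly above air for 47 in WT (22.2% of all genes), 1 in KO (4.93%), 6 in CD-1 (3.34%) and 0 in TG mice (0.242%).

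By role, 21 of 26 complex I accessory subunits rose in WT, 20 in CD-1 and 9 in KO mice, and 5, 5 and 3 of 7 complex III subunits. Ndufs1 again stood opposite, lower by 0.75, 0.59 and 0.69 in WT, KO and CD-1 mice (adjusted p = 0.00018, 0.00167 and 1.0e-06), and Ndufaf4 was lower by 0.31 in both KO and CD-1 mice. Ndufa4l2 was higher by 0.75, 0.57 and 0.50 and Cox4i2 by 0.40, 0.69 and 0.57. Genes of the mitochondrial ribosome moved likewise, with 54 of 73 higher in WT, 36 in KO, 47 in CD-1 and 0 in TG mice. The effect in WT, KO and CD-1 mice averaged, minus that in TG mice, was tested directly, a comparison chosen after the data were seen. It was higher for 45 members and lower for 1, where 29.9% of all genes were higher and 17% lower, with Ndufb8 at 0.48 (SE 0.0859, adjusted p = 4.03e-06, limma).

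The axis scores of styrene and air arrays did not overlap in WT mice and overlapped at their ends in KO and CD-1 mice. In WT mice they ran from 0.74 to 1.75 in air and from -3.70 to -2.21 in styrene, in KO mice from -0.37 to 1.97 and -4.11 to 0.72, in CD-1 mice from 0.36 to 2.08 and -4.26 to 0.45, and in TG mice from -1.15 to 1.96 and -0.36 to 2.52. With the score as a covariate 1 member was called in WT, 0 in KO and 6 in CD-1 mice, and 0 for the difference from TG mice. Of the 4 arrays of open plate, the KO pair had scores of -2.36 and 0.72 with member means of 0.07 and -0.09, and the TG pair scores of 2.52 and -0.17 with member means of -0.16 and -0.04.

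**Figure D4:**
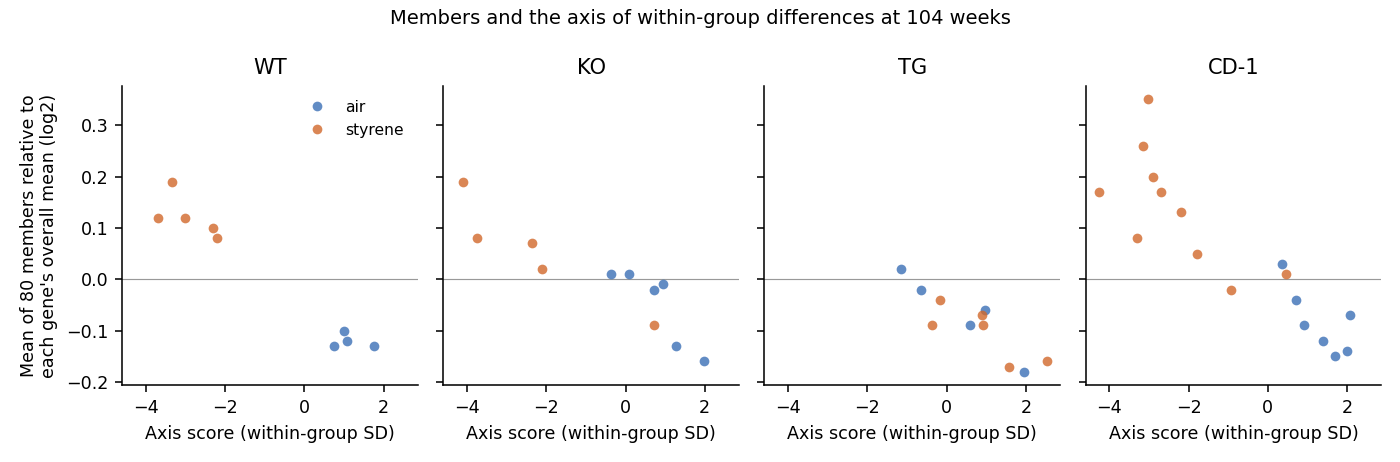
Mean of the 80 members in each lung of 104 weeks, relative to each gene's mean (log2), against the axis score in units of the within-group SD, by strain, with air in blue and styrene in orange. WT, KO and CD-1 lungs with scores below -2 had member means above 0, and TG lungs of both exposures lay at -1.15 or above, with member means of -0.18 to 0.02.

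Both muscle forms were called in exposed CD-1 mice. At 104 weeks Cox7a1 rose by 0.97 (SE 0.299, adjusted p = 0.00337, limma) and Cox6a2 by 0.58 (adjusted p = 0.0053) in exposed CD-1 mice, and 9 of 10 skeletal muscle markers and 4 of 13 heart markers were higher, where 42.8% of all genes rose. Skeletal muscle markers averaged 9.27 in replicate 6 of that group, and no array of the CD-1 air group exceeded 3.60. Without this array Cox7a1 was at 0.72 (adjusted p = 0.024) and Cox6a2 at 0.38 (adjusted p = 0.0482), and 57 members were called. On the air side replicate 3 was the lowest of its group for both muscle forms. It read 3.87 for Cox7a1 (others 5.34 to 6.19) and 6.73 for Cox6a2 (others 7.22 to 7.73), with a heart marker mean of 4.22. It was not among the arrays left out in turn, so how far both rises rest on it was not tested. In WT and KO mice neither muscle form was called (Cox7a1 at 0.18 and 0.13).

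Strains were compared in air controls of 52, 78 and 104 weeks. CD-1 mice differed from WT mice in 12 members, 4 higher and 8 lower, where 6.89% of all genes were higher and 10.5% lower, so their share is near that of all genes. The complex I accessory subunits Ndufc2 and Ndufa7 were 1.27-fold lower (-0.35, SE 0.0467, adjusted p = 9.7e-10, limma) and 1.26-fold lower (-0.33, adjusted p = 4.88e-08), and the assembly factor Ndufaf4 was 1.37-fold higher (0.45, SE 0.0719, adjusted p = 2.47e-07). Ndufc2 read 10.97 to 11.08 in the 5 WT mice of 52 weeks, 10.78 and 10.84 at 78 weeks and 10.92, 10.69, 10.80 and 10.80 at 104 weeks. In CD-1 mice it read 10.79, 10.65, 10.38 and 10.56 at 52 weeks, 10.57, 10.47, 10.39, 10.52 and 10.57 at 78 weeks and 10.34 to 10.72 (median 10.47, n = 7) at 104 weeks. The strains did not overlap at 52 or 78 weeks. All 5 probe sets of Ndufa7 were lower in CD-1 mice, by 0.23 to 0.32 as differences of group means, and both of Ndufaf4 were higher, by 0.45 and 0.35.

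Among the probe sets used for each gene, that of Ndufa12 had the largest strain difference, and the gene's probe sets disagreed. The brightest was 1.40-fold lower in CD-1 mice (-0.48, SE 0.0498, adjusted p = 1.06e-14, limma), with CD-1 air arrays at 10.23 to 10.72 at 104 weeks against 10.79 to 10.86 in WT mice. Of the others 1 was higher by 0.37 and 1 by 0.10, and their mean gave 0.01 (adjusted p = 0.945), so no direction can be given for the gene. Over all 39 members with several probe sets the signs were mixed for 12 in this comparison. Ndufb10, Ndufb2, Cox7a2l, Ndufa3 and Ndufaf2 were also lower in CD-1 mice, and Uqcrq, Cox6a1 and Atp5g1 higher. The calls of Ndufaf2, Ndufa3 and Atp5g1 were lost in 12, 8 and 7 of 20 fits with an array left out.

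Uqcrq, a small subunit of complex III, was the only member called between KO and WT air controls (0.26, SE 0.0615, adjusted p = 0.0215, limma), where 0.0382% of all genes were higher in KO. It read 10.26, 10.20, 10.23, 10.28 and 10.33 in WT mice of 52 weeks and 9.98 and 10.04 at 78 weeks, against 10.31, 10.43, 10.28, 10.48 and 10.49 and 10.62, 10.19, 10.26 and 10.19 in KO mice. At 104 weeks WT arrays read 10.04, 10.12, 10.12 and 10.03 and KO arrays 10.23 to 10.56 (median 10.39, n = 6). At 78 and 104 weeks all KO arrays lay above all WT arrays. The call was lost without WT air 78 weeks replicate 1 (adjusted p = 0.192) or 2 (0.113) and without KO air 78 weeks replicate 1 (0.109). Between TG and KO air controls no member was called (limma, 0.344% of all genes called; at an unadjusted p under 0.05 there were 4 members, or 5.0%, and 5.56% of all genes), with Uqcrq at -0.16 (adjusted p = 0.177). In CD-1 mice Uqcrq was again higher than in WT mice (0.27, adjusted p = 0.000397), a comparison that shares the WT arrays. The 3 other probe sets of Uqcrq averaged 3.04 to 4.11, near the dim end, and with the mean of its 4 probe sets the differences were 0.07 (KO, adjusted p = 0.984) and 0.10 (CD-1, adjusted p = 0.104).

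Uqcr10, another small complex III subunit, hid a strain pattern that its brightest probe set did not show, and it was singled out after its values were seen. That probe set differed by 0.03 between CD-1 and WT and by 0.13 between KO and WT air controls (adjusted p = 0.738 for the latter). Its dimmest probe set was lower by 4.34 in CD-1 and by 1.83 in KO mice as differences of group means, and the remaining one by 1.15 and 0.50. Across both arms and all weeks the dimmest one read 2.63 to 3.94 in all 42 CD-1 lungs and 6.90 to 8.20 in all 31 WT lungs. Of the 77 KO and TG lungs 71 read 5.51 to 8.00 and 6 read 2.76 to 3.33, inside the CD-1 range. Those 6 were KO air 26 weeks replicate 5 (3.33), KO air 52 weeks replicates 2 (3.22) and 4 (3.02), KO air 104 weeks replicates 4 (3.09) and 6 (2.76) and TG styrene 104 weeks replicate 3 (3.14). No lung lay between 3.94 and 5.51, so lungs of the same group fell into separate levels. With the mean of its 3 probe sets Uqcr10 was called in KO against WT (-0.73, adjusted p = 0.000384), CD-1 against WT (-1.83, adjusted p = 1.49e-22) and TG against KO mice (0.49, adjusted p = 0.00762). That mean carries the separate levels of the dimmest probe set. The brightest probe set was slightly higher, not lower, in KO and CD-1 mice, so no direction between strains can be given for Uqcr10. From 26 to 78 weeks in air its 3 probe sets moved alike, by -0.45, -0.41 and -0.47.

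**Figure D5:**
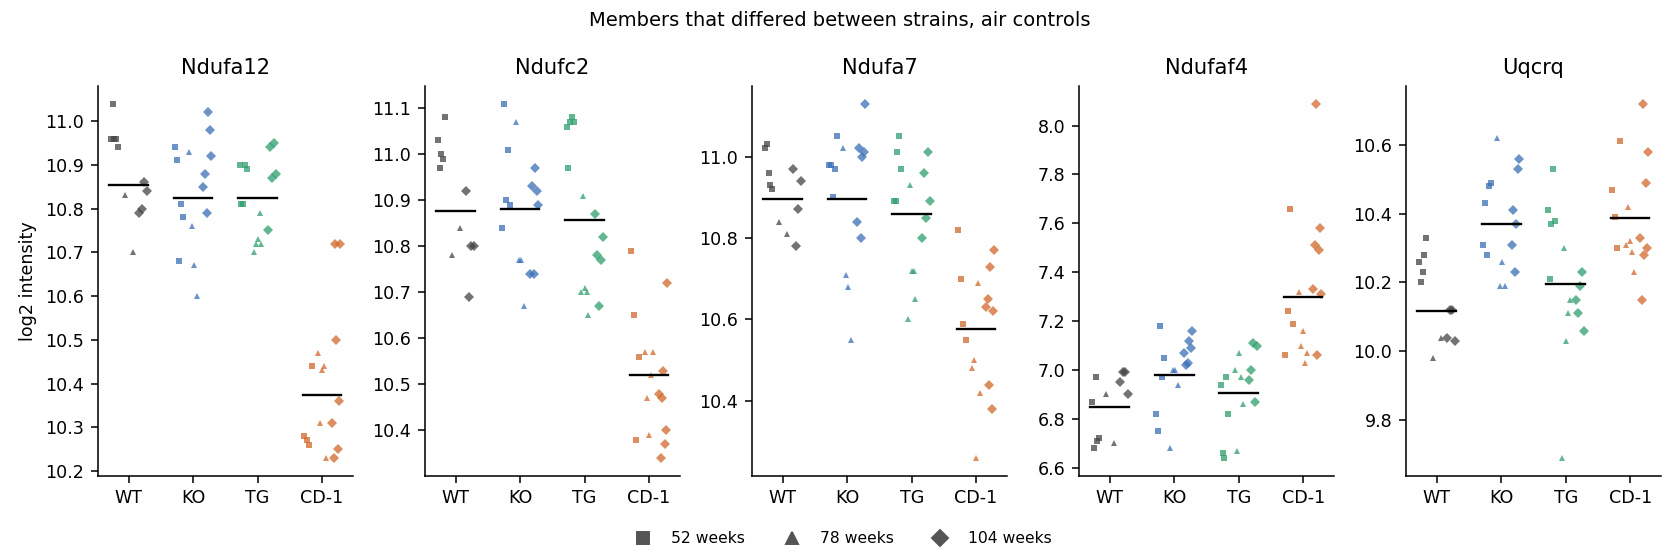
log2 intensity of 5 members in air controls of 52 (squares), 78 (triangles) and 104 weeks (diamonds), by strain, with a black line at the mean of the week means. CD-1 means were the lowest for the probe sets of Ndufa12, Ndufc2 and Ndufa7 and the highest for Ndufaf4, and the WT mean was the lowest for Uqcrq.

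The effect of styrene itself was also compared between strains over the weeks both had. No member differed for WT minus KO, TG minus KO or CD-1 minus WT (limma), where 0.0892%, 0% and 0.0701% of all genes were called. At an unadjusted p under 0.05 there were 5, 13 and 6 members (6.25%, 16.2% and 7.5%), against 5.61%, 4.12% and 8.35% of all genes. All 13 for TG minus KO were negative, from -0.22 (Atp5pb) to -0.1 (Atp5a1). These averages include 104 weeks, and the median SE was 0.071, 0.059 and 0.078.

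Members deviated from their group means together to a moderate degree over the 150 arrays. The median pairwise r was 0.32 over 3160 pairs, 86.1% of them positive. It was highest among complex I accessory subunits (0.46) and lowest among the tissue forms of complex IV (0.21). Atp5e (r = 0.81), Ndufb9 and Atp5g1 (0.80 each) were closest to the mean of the other members, while Cox7b2, Atp5pb and Ndufaf4 were at -0.03 to 0.02. Outside the family the genes most like the mean of the members were Pam16 (r = 0.80), which encodes part of the motor that imports mitochondrial proteins, the mitochondrial ribosomal gene Mrpl23 (0.78), the RNA polymerase gene Polr2j (0.78), Chchd5 (0.77) and the complex III assembly gene Uqcc2 (0.76).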

How the data were processed

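RNA of whole lung was measured on Affymetrix HT MG-430 PM arrays, whose 3-prime design reads mostly the ends of transcripts. The authors deposited log2 intensities per probe set after RMA, which corrects background, normalises and summarises probes, and the submitters' processing notes also name Partek. Whether all plates were normalised together and the array's genome build are not stated. Of 45037 probe sets 28898 name 1 gene, which gave 17097 genes, and 15695 passed a filter of lying above the 30th percentile of an array in at least 3 arrays. Array medians ran from 3.95 to 4.26, and arrays have no read depth, so their number limits the precision. RNA quality was not measured, since the values used here include no control probe sets for it.

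One limma 3.58.1 model (lmFit and eBayes, R 4.3.3) held a mean for each of the 31 groups and a plate 2 term, and p-values were adjusted by Benjamini and Hochberg over all genes tested at a threshold of 0.05. Every adjusted p is from limma. Members, roles and gene lists were chosen with earlier results of these data known, and 6 comparisons were added after the data were seen: styrene against air over all strains to 78 weeks, air 78 minus 26 weeks, both steps in exposed mice, the arm difference from 26 to 52 weeks and the contrast with TG mice at 104 weeks. The named genes are the members with the largest differences or smallest p of a comparison or role, the tissue forms, up to 3 genes of each list and the 5 genes most like a member, and others were picked after their values were seen. Replicates were separate mice. In simulated data on all 15695 genes, of which 200 were changed, the design of WT at 52 weeks recovered 43.3%, 91.5% and 97.1% of log2 changes of 0.5, 1 and 2, WT at 78 weeks 14.5%, 70.8% and 97%, and air 52 minus 26 weeks 89.6% at 0.5. Changes smaller than 0.5, such as the median member differences given above, were not simulated, so their recovery is unknown. Alternatives were other filters, normalisation, probe set choices, plate models, covariates and left-out arrays. Figures were drawn with matplotlib 3.10.9.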

Additional observations from a re-analysis of the deposited data

Results flagged for a closer look

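In 243 checks of a group of 4 to 10 arrays (9 measures), 23 found a lone array apart from the rest of its group, 18 different arrays in all, and chance alone flags about 1 in 20 such groups. For the mean of the members KO air 78 weeks replicate 4 was at -0.26, with the others at -0.15 to -0.13. Among air controls Ndufb2 was at 10.44 in WT 52 weeks replicate 3, at 10.90 in KO 26 weeks replicate 1 and at 10.94 in TG 26 weeks replicate 1. Ndufa2 was at 10.88 in WT styrene 52 weeks replicate 3, at 10.57 in WT styrene 78 weeks replicate 2 and at 10.89 in KO air 52 weeks replicate 3. Uqcr10 was at 10.14 in WT air 52 weeks replicate 3, at 10.75 in KO styrene 104 weeks replicate 1 and at 10.40 in TG air 78 weeks replicate 2. In KO air 78 weeks replicate 1, Ndufs1 was at 7.75 (others 8.57 to 8.71), Uqcrq at 10.62 (10.19 to 10.26) and Cox7a1 at 4.72 (4.82 in each). In CD-1 styrene 26 weeks replicate 2, the only array of its group on plate 2, Ndufs1 was at 7.59 (8.35 to 8.51) and Uqcrq at 10.93 (10.62 to 10.71). In replicate 1 of that group Cox6a2 was at 9.18 (7.57 to 7.76) and Cox7a1 at 8.07 (6.54 to 6.83). Cox6a2 was at 8.47 in TG styrene 26 weeks replicate 3 and Cox7a1 at 3.87 in CD-1 air 104 weeks replicate 3. Ndufa12 was at 11.04 in WT air 52 weeks replicate 2, 10.78 in WT styrene 78 weeks replicate 5, 10.44 in CD-1 air 52 weeks replicate 4 and 9.99 in CD-1 styrene 104 weeks replicate 5.

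The effect of styrene at 104 weeks differed between TG mice and the mean of WT, KO and CD-1 mice for 46 members, 45 higher and 1 lower, in the interaction test of limma, where plate and dose coincide.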

How the results depend on the processing

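Of 432 values of 30 counts under other settings, 399 stayed within 1.5 times. Counts that moved were, for styrene against air in TG mice of 78 weeks (1 as reported), 39 without the plate term, 32 with plate as a random block, 0 with strains fitted apart or with the axis covariate, and 2 without the arrays of open plate or the 2 farthest along the axis. For WT mice of 52 weeks (1) the count was 2 with strains fitted apart, only plate 1 or the heart marker covariate and 4 with the axis covariate. For KO mice of 104 weeks (31) it was 19 after another quantile normalisation, 6 with the random block and 0 with the axis covariate. That covariate gave 1 for WT (52) and 6 for CD-1 mice (58) of 104 weeks, 0 for the contrast with TG mice (46), 25 for air 52 minus 26 weeks (16), 2 for styrene 78 minus 52 weeks (0) and 1 for TG minus KO air controls (0). CD-1 mice of 26 weeks (0) had 1 with it, without the plate term and with the random block. The mean of probe sets gave 1 for TG minus KO air controls and 1 for styrene 78 minus 52 weeks, where another quantile normalisation or leaving out tumour-labelled mice gave 1, the random block 3 and no plate term 17. Styrene against air over all strains to 78 weeks (0) had 8 without the plate term and 2 with the random block. KO minus WT air controls (1) had 0 without 104 weeks or without the 2 arrays farthest along the axis, and air 104 minus 78 weeks (35) had 1 with the random block. The cause was not tested.

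With each array of groups of 2 to 5 left out in turn, counts ran from 8 to 23 for air 52 minus 26 weeks, 49 to 56 for 78 minus 52, 65 to 69 for 78 minus 26 and 26 to 36 for 104 minus 78, 49 to 56 and 0 to 1 for the steps in styrene, 48 to 51, 14 to 37 and 0 in WT, KO and TG mice of 104 weeks, 40 to 50 for the contrast with TG mice, 0 to 1 in WT mice of 52 weeks, 0 to 20 in TG mice of 78 weeks, 0 to 1 in CD-1 mice of 26 weeks, 8 to 14 for CD-1 minus WT and 0 to 1 for KO minus WT. Of 64 same-numbered pairs of exposed and air arrays 19 had r over 0.1 (from -0.50 to 0.65), and in 1 of 15 pairs of strain and week, TG mice of 26 weeks, all 4 did (0.32 to 0.49), so the numbers were not taken to pair samples across the series. The replicate block gave 0 there, as reported, 33 in KO and 62 in CD-1 mice of 104 weeks, 11 for CD-1 minus WT, 18 for air 52 minus 26 weeks and 52 for the contrast with TG mice, and no count changed by over 1.5 times. Signals near the dim end (Cox7b2, other probe sets of Uqcrq and, less so, Cox4i2) limit what can be read of them.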
